A study of Drosophila melanogaster with 20 samples.

Results

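Purine nucleotides are made in the cell by a de novo pathway, which builds the purine ring on phosphoribosyl pyrophosphate (PRPP) and ends at IMP, and by salvage enzymes, which attach PRPP to free purine bases. From IMP, one branch leads to AMP and the other to GMP. The products bear on the white gene directly, since the White protein pairs with Brown to transport guanine and with Scarlet to transport tryptophan derivatives, and since GTP is the starting material of the red pteridine eye pigments; several genes of the pathway, among them raspberry (ras) and burgundy (bur), were first known as eye color mutants.

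Expression was followed for 9 genes of purine synthesis and salvage, chosen by name from the 17609 genes of the count table: Prat, Prat2, ade2, ade3 and AdSL of the de novo pathway, AdSS, ras and bur of the AMP and GMP branches, and Aprt of salvage. RNA was sequenced from whole heads of 1-week-old unmated flies in 4 groups of 5 samples, w+ and w- flies of each sex, each sample a pool of 10 heads. All 4 groups share the w1118 background; w- flies carry only its partial white deletion, whereas w+ males carry 1 white copy from a Harwich line, crossed into w1118 over 10 generations, and w+ females carry that copy beside the w1118 allele. The w+ groups therefore rest on a single donor allele, and the piece of the X chromosome that came with it cannot be told apart from white itself. The labels number the samples 1 to 5 within each group but do not say what samples of the same number share. P-values for genotype measure the spread between these pools that is left once replicate number is fitted as a block. Those between the sexes, fitted without a block, measure the spread between the pools.

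Totals ran from 34.2 to 48.9 M counts per library, at which 3 counts equal 0.0614 to 0.0877 CPM (counts scaled to a library total of 1 M). The white gene itself (chrX:2790599-2796466) stood at 10.1 ± 1.58 CPM in w+ males and 0.270 ± 0.0565 in w- males (SD, n = 5), and at 14.6 ± 1.70 CPM in w+ females and 0.227 ± 0.127 in w- females, with no overlap in either sex. Each library thus matched the genotype of its label, while white does not check the sex labels. Photoreceptor, neuron and glia markers were present in every group, as fits a head sample, and so were fat body markers, whose levels moved with genotype and are given beside the results. CPM here are scaled by TMM (trimmed mean of M values, a library scaling) over all 20 libraries, and changes are log2 fold changes of w- over w+ from edgeR's quasi-likelihood test with replicate number as a block, with Benjamini-Hochberg adjusted p-values over all genes tested. A gene is said to rise or fall when its adjusted p was under 0.05.

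All 9 genes passed the filter on low counts in every comparison. Per kilobase of exon, over all 20 libraries, Prat2 had the highest mean level, 101 CPM per kb, followed by AdSS at 59.7, ade3 at 42.2, bur at 39.6, ras at 35.4, ade2 at 29.9, AdSL at 24.2 and Aprt at 14.2, with Prat last at 3.41. Neighbours in the middle of the order were not separated by their spread in either w+ group. In w+ males, for example, AdSS (53.9 ± 1.5 CPM per kb, SD, n = 5) and ade3 (50.4 ± 24.7) overlapped, as did each next neighbour down to AdSL (27.0 ± 7.84). Some were separated in w- flies. In w- males AdSS lay above bur, and bur above ras, without overlap, and in w- females AdSS lay above ade3 without overlap. Prat2 lay above AdSS without overlap in both w+ groups but overlapped it in both w- groups, and Aprt and Prat did not overlap in any group. The genes also differed in how widely they varied: the highest library was 4.85 times the lowest for ade3, 4.21 times for Prat2, 3.08 times for ade2 and 2.55 times for AdSL, against 1.55 times for AdSS, 1.53 times for ras, 1.49 times for bur and 1.41 times for Prat.

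**Figure D1:**
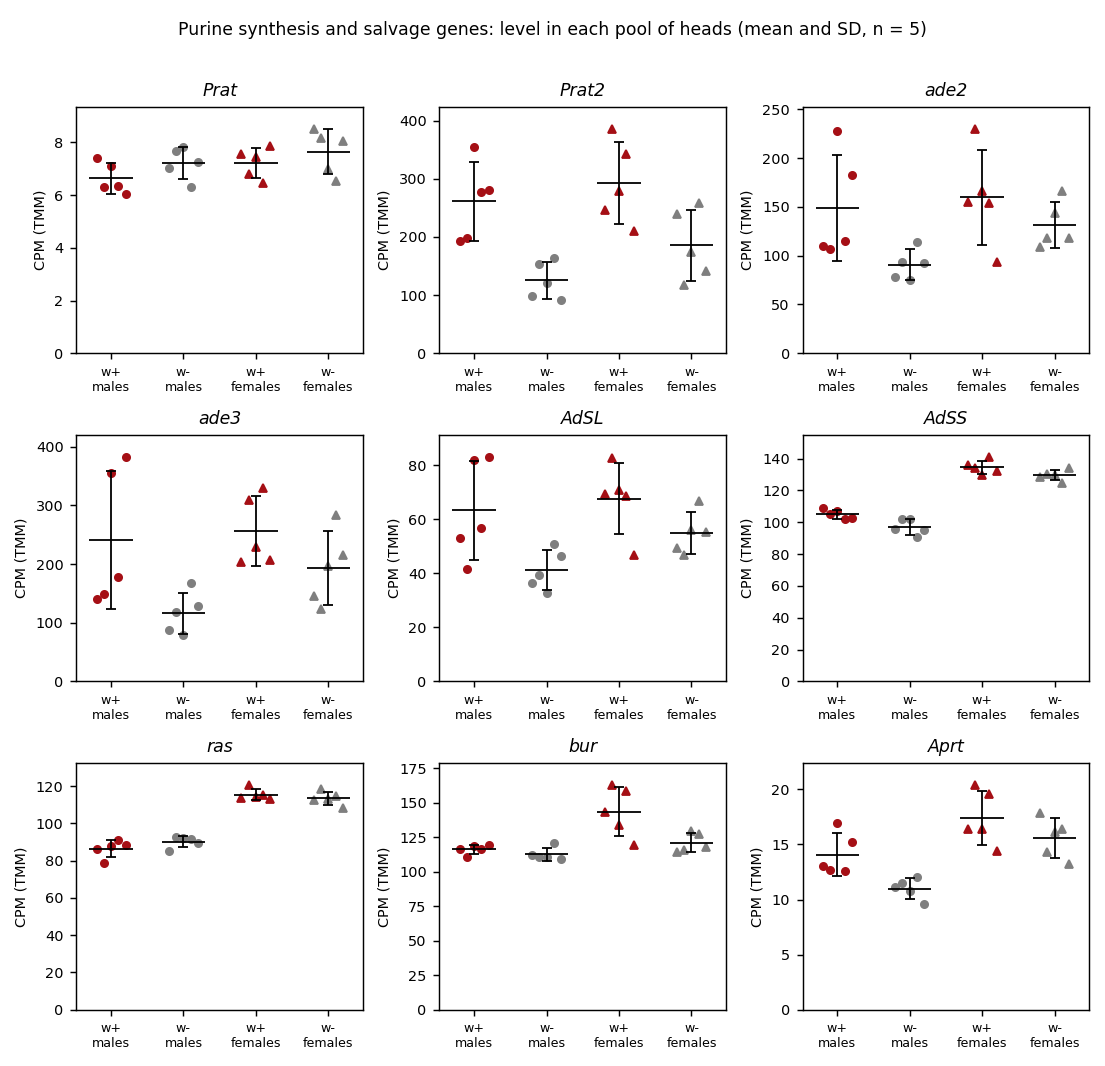
Level of each of the 9 genes in every library, in TMM-scaled CPM on axes that start at 0; red symbols are w+, gray symbols w-, circles males and triangles females, and the line and bar give the mean and SD (n = 5). Prat2 lies at 193 to 355 CPM in w+ males and 91.7 to 164 CPM in w- males with no overlap, ade3, ade2 and AdSL spread widely in w+ males, and AdSS and ras separate by sex.

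In males, loss of white was accompanied by a lower level of 1 of the 9 genes. Prat2 fell by 1.06 on the log2 scale (SE 0.21, edgeR adjusted p = 0.035), a level 52.0% lower than in w+ males. Of the 11187 genes tested in males, 12.7% were called and 8.06% were called lower in w-. The others did not pass the test, although ade2, ade3, AdSL, AdSS and Aprt, like Prat2, were lower in w- in all 5 same-numbered pairs, which 13.6% of all genes were. Without the replicate block AdSS (adjusted p = 0.0495) and Aprt (adjusted p = 0.021) passed as well, so that 3 of the 9 fell, and the numbers are not shown to pair libraries. The shares of all genes called given above are from the fit with the block, so they are no measure for that count of 3. The median log2 fold change of the 9 genes was -0.36, and that of the 5 de novo genes -0.66, beside 0.0012 over all genes tested.

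Prat and Prat2 both encode amidophosphoribosyltransferase, the enzyme of the first committed step, which puts an amino group on PRPP. Prat2 (FBgn0041194) lies on chr3L:6911999-6914876, and Prat (FBgn0004901) on chr3R:7909598-7911779, both on the minus strand, Prat with exons that overlap Taf7 on the other strand. Coordinates are those of Drosophila Release 6. Reads were counted by strand.

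Prat2 in w+ males stood at 193, 198, 355, 277 and 281 CPM in replicates 1 to 5. In w- males it stood at 99.1, 153, 121, 164 and 91.7 CPM. Every w- male library was below every w+ male library, as for 7.43% of all genes tested. In females, Prat2 stood at 246, 386, 280, 342 and 210 CPM in w+ and at 239, 117, 174, 258 and 141 CPM in w-. These groups overlapped, since w- replicates 1 and 4 lay within the w+ range. The change of -0.68 (SE 0.24, adjusted p = 0.12) did not pass the test. In all 5 same-numbered pairs w- was lower, as for 15.7% of all genes tested in females. The male call was lost in most fits with 1 replicate number left out, although the change stayed between -1.23 and -0.92. The edgeR adjusted p became 0.11 without replicate 1, 0.075 without 3, 0.089 without 4 and 0.094 without 5, and was 0.027 without 2. It was also 0.066 when every gene with at least 1 count was tested, while DESeq2 gave 1.5e-04.

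Prat, the paralog with the lower level, did not fall. It ranged over 6.02 to 7.39 CPM in w+ males and 6.29 to 7.81 CPM in w- males, and its changes of 0.11 (SE 0.072, adjusted p = 0.37) in males and 0.081 (SE 0.066, adjusted p = 0.44) in females were both positive. The ratio of Prat2 to Prat per kilobase, which does not depend on how libraries are scaled, was 25.7, 30.8, 49.1, 42.9 and 45.9 in w+ males. It was 13.9, 19.6, 15.2, 25.6 and 12.4 in w- males. The highest w- male ratio, 25.6 in replicate 4, was just under the lowest w+ male ratio, and the difference of -1.17 on the log2 scale had the smallest p that an exact two-sided permutation test of 5 against 5 samples can give, 0.0079 (0.016 adjusted over the 2 sexes). In females the ratio was 40.6 ± 12.8 in w+ and 24.5 ± 9.65 in w- (SD, n = 5), lower in all 5 pairs but overlapping, with an exact permutation p of 0.063 for a difference of -0.76. So, in males, the paralogs changed unequally within the same libraries. Prat varied little, so the ratio mostly restates the fall of Prat2 and is not separate evidence of it. With 1 replicate number left out, the male difference ranged from -1.30 to -0.995.

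The next steps of ring building are carried by ade3, which encodes a protein with 3 enzyme activities of the pathway, and ade2, which encodes formylglycinamide ribonucleotide amidotransferase. AdSL encodes adenylosuccinate lyase, which acts both late in the de novo pathway and in the AMP branch. The gene ade3 (FBgn0000053, now called Gart) lies on chr2L:7014623-7023898 with CG43322 on its other strand, ade2 (FBgn0000052, now Pfas) on chr2L:6041181-6046050 with CG31643 on its other strand, and AdSL (FBgn0038467, now Adsl) on chr3R:17018780-17021120.

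In w+ males ade3 stood at 141, 149, 356, 178 and 382 CPM. In w- males it stood at 88.1, 118, 78.9, 168 and 128 CPM. Replicates 3 and 5 of w+ males stood well above the other w+ males, and w- replicate 4 lay above the 2 lowest w+ libraries. The change, -0.97 (SE 0.38, adjusted p = 0.20), was close to that of Prat2 in size with a wider error. For ade2, w+ males stood at 110, 107, 228, 116 and 183 CPM and w- males at 78.2, 94.0, 74.6, 114 and 92.4 CPM, a change of -0.66 (SE 0.27, adjusted p = 0.20). AdSL stood at 53.1, 41.6, 81.9, 56.6 and 82.9 CPM in w+ males and at 36.5, 39.2, 32.5, 50.7 and 46.4 CPM in w- males, a change of -0.60 (SE 0.20, adjusted p = 0.14). For both genes, too, w+ replicates 3 and 5 were the highest. For ade2, w- replicate 4 lay above w+ replicates 1 and 2. For AdSL, w- replicates 4 and 5 lay above w+ replicate 2.

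In females the same 3 genes had smaller changes, none past the threshold. For ade3, w+ females stood at 204, 310, 229, 330 and 207 CPM and w- females at 146, 124, 197, 283 and 216 CPM, a change of -0.43 (SE 0.20, adjusted p = 0.21). The changes of AdSL (-0.29, SE 0.15, adjusted p = 0.26) and ade2 (-0.24, SE 0.19, adjusted p = 0.43) were smaller still, and ade2 was lower in w- in only 3 of 5 pairs. All 3 overlapped between the female groups.

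**Figure D2:**
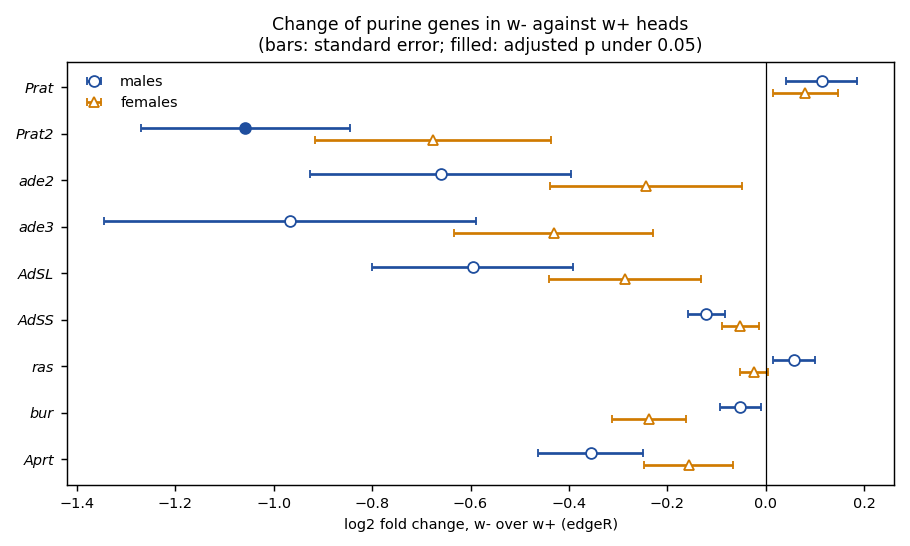
Change of each gene in w- over w+ heads, as the edgeR log2 fold change with its standard error; circles are males, triangles females, and a filled symbol marks an adjusted p under 0.05. Prat2 in males, at -1.06, is the filled symbol; Prat lies above 0 in both sexes, and ade3, ade2 and AdSL lie further below 0 in males than in females, a difference that did not pass its own test.

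The libraries that were high for one of these genes were high for the others. In w+ males, replicates 3 and 5 were among the 2 highest for all 4 of Prat2, ade2, ade3 and AdSL; replicate 4 was the highest for all 4 in w- males, and also in w- females. Over the 20 libraries, Pearson's r of log2 CPM was 0.96 between ade2 and AdSL, 0.93 between ade3 and AdSL, 0.89 between ade2 and ade3, and 0.81 to 0.82 between Prat2 and each of these 3. These values describe libraries that share genotype, sex and scaling. With the 4 group means removed, they were 0.92, 0.87 and 0.80 for the first 3 pairs and 0.61 to 0.67 for the pairs with Prat2. Aprt and bur moved with the 4 genes as well, with r of 0.56 to 0.84 for Aprt and 0.53 to 0.70 for bur once group means were removed. Prat went the other way, with r of -0.44 to -0.36 to the 4 genes, and AdSS and ras, at 0.89 with each other, had r of -0.05 once group means were removed.

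Among 9898 genes compared with Prat2 over the 20 libraries, the closest were CG7322, CG9547 and Acbp2, an acyl-CoA binding protein gene, each at r = 0.93. In males CG7322 (-0.81, edgeR adjusted p = 0.041) and Acbp2 (-0.84, adjusted p = 0.022) fell in w-, and CG9547 (-1.09, adjusted p = 0.065) did not pass. None of these passed in females. They were picked by correlation over libraries of both genotypes, so their falls are not separate evidence of that of Prat2. For ade3 the closest gene was CG11089 (r = 0.97), which encodes the enzyme of the last steps to IMP. The closest gene to AdSL was ry (0.96), which encodes xanthine dehydrogenase and was also the closest to ade2 (0.94), and Shmt, serine hydroxymethyltransferase of folate metabolism, was second for all 3 (0.94 to 0.95). The neighbours of ade3, AdSL and ade2 were picked for mention after their values were seen. None of CG11089, ry and Shmt passed the test of w- against w+ in either sex.

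**Figure D3:**
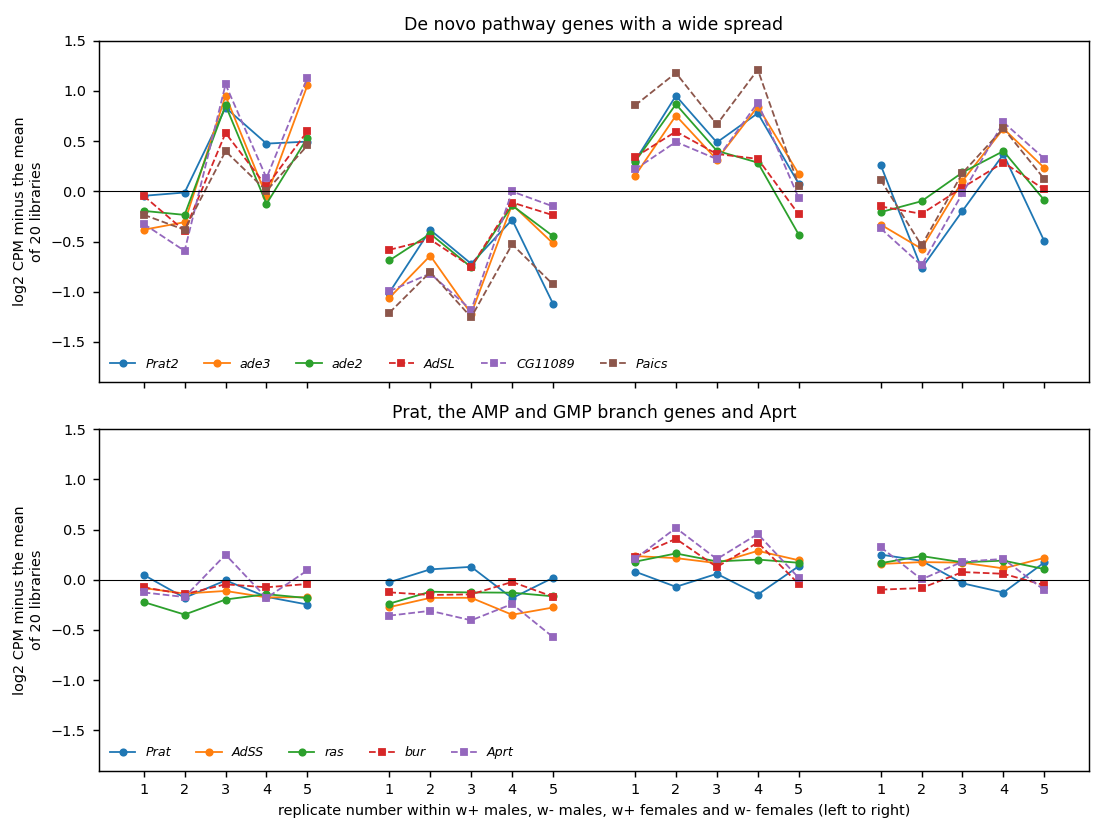
Deviation of log2 CPM from each gene's mean over the 20 libraries, by replicate number within each group; upper panel Prat2, ade3, ade2, AdSL, CG11089 and Paics, lower panel Prat, AdSS, ras, bur and Aprt, on the same scale. The lines of the upper panel run close together from library to library, with w+ male replicates 3 and 5 high and all w- males below 0, whereas those of the lower panel stay nearer to 0. Aprt and bur of the lower panel still correlated with Prat2, ade3, ade2 and AdSL.

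Fat body markers also differed between libraries and genotypes. Of 6 markers listed, apolpp, Mtp, Lsp2 and FASN1 were tested, while Fbp1 and Fbp2 had at most 78 and 6 counts in any library. All 4 tested were lower in w- in both sexes, with a median change of -0.60 in males, where Mtp and FASN1 fell, and -0.52 in females, where none passed. Their summed level, with the 2 untested markers, was 6500 to 10427 CPM in w+ males against 4147 to 6284 CPM in w- males, and 11232 to 23099 CPM in w+ females against 7625 to 14680 CPM in w- females. The male groups did not overlap. The sums also differed between the sexes. Their median was 22602 CPM in w+ females and 8079 CPM in w+ males, where Prat2, ade2, ade3 and AdSL differed by 0.10 to 0.18 on the log2 scale. It was 12607 CPM in w- females and 4672 CPM in w- males, where these 4 genes differed by 0.42 to 0.74. The 2 w+ males with the highest sums were again replicates 3 and 5, and the highest w- male and w- female were again replicate 4. The part of fat body content in the purine results was not tested, and in whole heads fewer fat body cells and less RNA per cell cannot be told apart. In females, the muscle markers Mhc and up rose in w- (4 listed, 2 called, summed 1981 to 2620 CPM in w+ and 2726 to 3139 CPM in w-), and in males the photoreceptor markers Arr2 and Rh4 rose (7 listed, 2 called, summed 44747 to 51870 CPM in w+ and 49560 to 53335 CPM in w-). No neuron, glia or hemocyte marker passed in either sex, but all 4 hemocyte markers were higher in w- females, with a median change of 0.50 and sums of 292 to 353 CPM in w+ and 336 to 600.5 CPM in w-. The part of these markers in the purine results was not tested.

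AdSS, ras and bur act below IMP. AdSS encodes adenylosuccinate synthetase, the first enzyme of the AMP branch; ras encodes IMP dehydrogenase, the first of the GMP branch, and bur encodes GMP synthetase, which follows it. AdSS (FBgn0027493, now Adss) lies on chr3R:20824667-20830580, ras (FBgn0003204) on chrX:10744502-10749097 and bur (FBgn0000239) on chr2L:21174182-21179683. An antisense RNA gene overlaps AdSS and another overlaps bur; ras shares same-strand exon sequence with a noncoding RNA gene, lncRNA:CR44766, so part of its reads may not have been assigned to it.

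AdSS was 109, 105, 107, 102 and 102 CPM in w+ males and 95.5, 102, 102, 90.7 and 95.3 CPM in w- males. The groups touched without overlapping, yet the change was small, -0.12 (SE 0.037, adjusted p = 0.072, or 0.0495 without the block). In females AdSS was 134 ± 4.31 CPM in w+ and 130 ± 3.38 in w- (SD, n = 5), a change of -0.05 (SE 0.038, adjusted p = 0.39). For ras, w+ males had 86.4 ± 4.52 CPM and w- males 90.2 ± 3.04, and w+ females had 115.3 ± 3.0 and w- females 113 ± 3.68, with changes of 0.06 (adjusted p = 0.46) and -0.02 (adjusted p = 0.61). The 2 female changes of AdSS and ras turned positive, to 0.089 and 0.12, when libraries were scaled by their totals alone, which moved the median of all genes by 0.14 in that comparison.

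Among the 9 genes, bur had the smallest adjusted p in females. It stood at 144, 163, 134, 158 and 119 CPM in w+ females and at 114.6, 116, 129, 128 and 118 CPM in w- females. Replicate 5 of w+ females, at 119 CPM, lay among the w- values, and w- was lower in all 5 pairs, as for 15.7% of genes tested. The change was -0.24 (SE 0.075, adjusted p = 0.088). In males bur stood at 116 ± 3.23 CPM in w+ and 113 ± 4.68 in w-, a change of -0.05 (SE 0.041, adjusted p = 0.49). The genes closest to bur over the 20 libraries were RpL34a, a ribosomal protein gene, AdipoR, which encodes an adiponectin receptor, and Nacalpha, which encodes a subunit of the nascent polypeptide-associated complex, all at r = 0.95. In w- males RpL34a (-0.18, edgeR adjusted p = 0.020), AdipoR (-0.27, adjusted p = 0.031) and Nacalpha (-0.23, adjusted p = 0.010) fell, and none of them passed in females.

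No gene of the 9 was called in females by edgeR, where 9.23% of the 10762 genes tested were. Prat2 and bur had unadjusted p under 0.05, as did 32.1% of all genes, and DESeq2 called 1, Prat2 (adjusted p = 0.011). None of the 9 separated the female groups without overlap, as 2.88% of all genes did with w- lower. The change was negative for 8 of 9, with a median of -0.24 beside -0.0036 over all genes.

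Aprt encodes adenine phosphoribosyltransferase, which salvages adenine to AMP. It lies on chr3L:1883795-1885019 (FBgn0000109). In w+ males it stood at 13.1, 12.6, 16.9, 12.6 and 15.2 CPM, and in w- males at 11.1, 11.5, 10.8, 12.04 and 9.58 CPM. The male groups did not overlap, and the change was -0.36 (SE 0.11, adjusted p = 0.075, or 0.021 without the block). Without replicate 4 it was -0.43 and passed, and Prat2 then did not. In females Aprt was 17.4 ± 2.45 CPM in w+ and 15.6 ± 1.82 in w- (SD, n = 5), with overlap and a change of -0.16 (SE 0.090, adjusted p = 0.28). Across libraries Aprt followed Prat2 (r = 0.82, and 0.84 with group means removed).

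Whether the change with genotype differed between the sexes was tested as an interaction over all 20 libraries. None of the 9 genes passed by edgeR or DESeq2, where 0.0263% of 11423 genes did by edgeR, and 1, bur, had an unadjusted p under 0.05 (0.049, adjusted p = 0.81), as 6.03% of all genes did. For bur the female change was 0.19 lower than the male one (SE 0.087). For ade3 the female change was 0.53 higher (SE 0.44), for ade2 0.41 higher (SE 0.35), for Prat2 0.38 higher (SE 0.34) and for AdSL 0.30 higher (SE 0.27). For these 4 de novo genes, the male and female changes thus differed by less than 2 standard errors, and intervals this wide leave large differences possible.

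Between the sexes themselves, AdSS and ras were higher in females of both genotypes under TMM scaling, and the other calls differed with genotype. AdSS, ras and bur were higher in females among w+ flies, by 0.37 (SE 0.040, adjusted p = 1.1e-04), 0.43 (SE 0.046, adjusted p = 1.1e-04) and 0.31 (SE 0.079, adjusted p = 0.012), where 28.8% of 10937 genes were called and 16.9% were called higher. In w- flies AdSS (0.42, adjusted p = 9.1e-06), ras (0.33, adjusted p = 2.7e-05), Aprt (0.51, adjusted p = 7.0e-04), ade2 (0.53, adjusted p = 0.018) and AdSL (0.42, adjusted p = 0.033) were higher in females, where 40.7% of 10869 genes were called and 21.4% higher. In w+ flies AdSS, ras and bur did not overlap between the sexes, as 9.99% of genes did not in this direction, bur by a narrow margin (119.11 CPM in w+ females replicate 5 against 119.09 in w+ males replicate 5). In w- flies the differences of Prat2 and ade3, 0.57 (adjusted p = 0.11) and 0.74 (adjusted p = 0.061), did not pass.

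The scaling moved these sex differences. With libraries scaled by their totals alone, the median of all genes moved by -0.27 in w+ and -0.17 in w- flies, and none of the 9 genes was then called in w+, where Prat, Prat2, ade2, ade3 and AdSL turned negative (-0.19 to -0.11); in w-, AdSS (0.25), ras (0.16), Aprt (0.33) and ade2 (0.36) still passed, AdSL (0.25, adjusted p = 0.11) did not, and Prat (-0.081) and bur (-0.067), neither of them called, turned negative. The share of calls that were higher in females went from 58.6% to 9.62% in w+ and from 52.7% to 18.9% in w-. The w+ call of bur was lost without replicate 1, 2 or 4, with differences of 0.31, 0.24 and 0.27, and in w- the call of AdSL was lost without replicate 1, 2, 3 or 5 (0.34 to 0.46) and that of ade2 without replicate 3 (0.43). Fat body marker sums were higher in females of both genotypes, with no overlap between w+ females and w+ males or between w- females and w- males; their part in these differences was not tested.

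**Figure D4:**
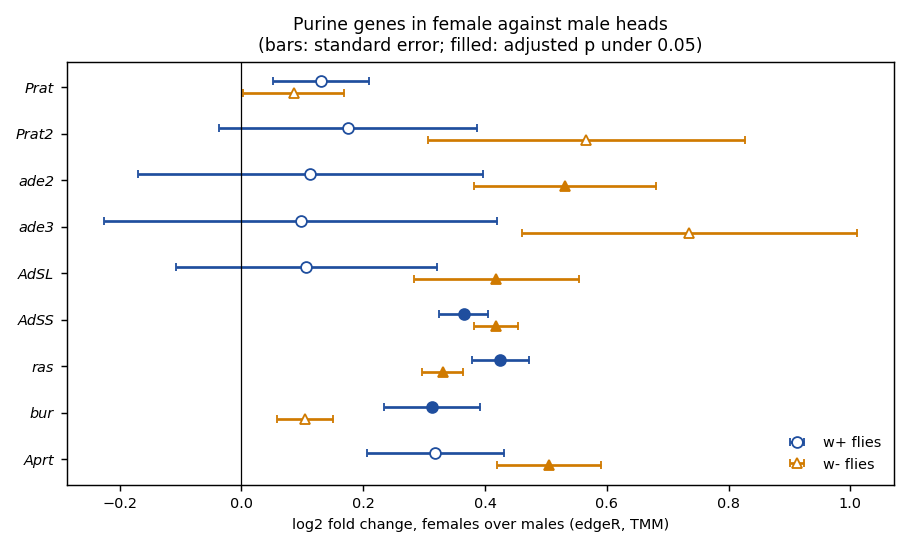
Difference between female and male heads for each gene, as the edgeR log2 fold change with its standard error under TMM scaling; circles are w+ flies, triangles w- flies, and a filled symbol marks an adjusted p under 0.05. AdSS and ras are filled in both genotypes; with scaling by library totals alone the w+ calls are lost and Prat, Prat2, ade2, ade3 and AdSL in w+, and Prat and bur in w-, lie below 0.

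Other genes of purine metabolism were read from lists of 35 genes, of which 32 were tested; 4 rose and 5 fell in w- males, where 12.7% of all genes were called, and 2 rose and 1 fell in w- females, where 9.23% were. The 3 other genes of the de novo pathway and PRPP supply were all lower in both sexes, with medians of -0.91 in males and -0.42 in females. One of them fell in males, Paics, which encodes the enzyme of the 2 steps before AdSL (chrX:12757036-12760617). It stood at 413, 373, 641, 488 and 667 CPM in w+ males and at 210, 278, 204, 337 and 256 CPM in w- males, without overlap, a change of -0.999 (SE 0.21, adjusted p = 0.041). In females its change was -0.69 (adjusted p = 0.12). Like that of Prat2, the Paics call in males was lost without replicate 1, 3, 4 or 5, and when every gene with at least 1 count was tested. Its changes were -1.14 to -0.83 over all alternatives, with adjusted p of up to 0.15.

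Folate enzymes supply formyl groups to ring building. All 4 folate genes listed were lower in both sexes, with medians of -0.88 and -0.37. Of these pug, which encodes a methylenetetrahydrofolate dehydrogenase with formate ligase activity, fell in males by 0.94 (SE 0.19, adjusted p = 0.036), from 426 ± 118 to 221 ± 56.2 CPM (SD, n = 5). Its call was lost without replicate 1, 2, 3 or 5, and when every gene with at least 1 count was tested, with adjusted p of up to 0.11. Nmdmc, picked after its values were seen, had a larger male change that did not pass, -1.53 without overlap (SE 0.39, adjusted p = 0.077). In females it was at -0.34 (adjusted p = 0.61).

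Of the genes that convert purine nucleotides into one another, 9 were tested. AMPdeam, AMP deaminase, fell by 0.17 in males (adjusted p = 0.048) and by 0.28 in females (adjusted p = 0.039), and awd, a nucleoside diphosphate kinase, fell by 0.22 in males (adjusted p = 0.036). AMPdeam lost its male call without any 1 replicate and its female call without replicate 1, 2, 4 or 5, and awd lost its call without 1, 3, 4 or 5. By library totals alone these changes were -0.12 and -0.14 for AMPdeam and -0.17 for awd, and none passed; the male calls of both genes were also lost with all 20 libraries in 1 fit, and that of AMPdeam with size factors. Among 10 breakdown genes tested, Adgf-A, a secreted adenosine deaminase, rose by 0.24 in males (adjusted p = 0.011, and 0.052 with all 20 libraries in 1 fit), and DhpD, which encodes dihydropterin deaminase, fell by 0.31 in males (adjusted p = 0.026), the latter not without replicate 3 or 5. Among these breakdown genes, larger changes that did not pass were chosen for mention after their values were seen. CG16758 was at -1.08 in males without overlap (adjusted p = 0.066) and -0.55 in females (adjusted p = 0.20). Adgf-D was at -0.48 in males (adjusted p = 0.076) and -0.54 in females (adjusted p = 0.086). No gene of the 3 other salvage genes listed passed in either sex. Of these CG3809, also picked after its values were seen, was at -0.98 in males (adjusted p = 0.095). In females it was at -1.25 without overlap (adjusted p = 0.069), at low means of 0.82 CPM in w+ and 0.35 CPM in w-.

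Of Pu, bw and st, the first leads GTP into pigment synthesis and the others encode partners of White. Pu, which encodes GTP cyclohydrolase, the enzyme that leads GTP into pteridines, rose in both sexes. Its level was 122 ± 8.73 CPM in w+ males and 207 ± 5.11 in w- males (SD, n = 5; 0.76, SE 0.046, adjusted p = 9.4e-05). In w+ females it was 139 ± 14.9 CPM and in w- females 252 ± 10.8 (0.86, SE 0.071, adjusted p = 0.0027). No w- library overlapped any w+ library of its sex. The gene for White's guanine partner, bw, rose by 0.76 in males (SE 0.072, adjusted p = 0.0010) and by 0.54 in females (SE 0.12, adjusted p = 0.0495), and st, which encodes Scarlet, its partner for tryptophan derivatives, rose by 0.46 in males (SE 0.083, adjusted p = 0.012) and had a change of 0.28 in females (adjusted p = 0.11). Pu in both sexes, and bw and st in males, passed in all 13 alternatives. The female call of bw was lost without replicate 1, 2, 3 or 4, and when every gene with at least 1 count was tested, with adjusted p of up to 0.15.

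Pyrimidine synthesis, a neighbouring pathway, showed a median of -0.083 in males, where none of 6 genes passed, and -0.10 in females. There r, which encodes the enzyme of the first steps, fell by 0.56 (adjusted p = 0.033) and Dhod, dihydroorotate dehydrogenase, fell by 0.22 (adjusted p = 0.037). Both calls were lost without replicate 1, 2, 3 or 4, and that of Dhod also without the block (adjusted p = 0.080) and by library totals alone (-0.084, adjusted p = 0.27).

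**Figure D5:**
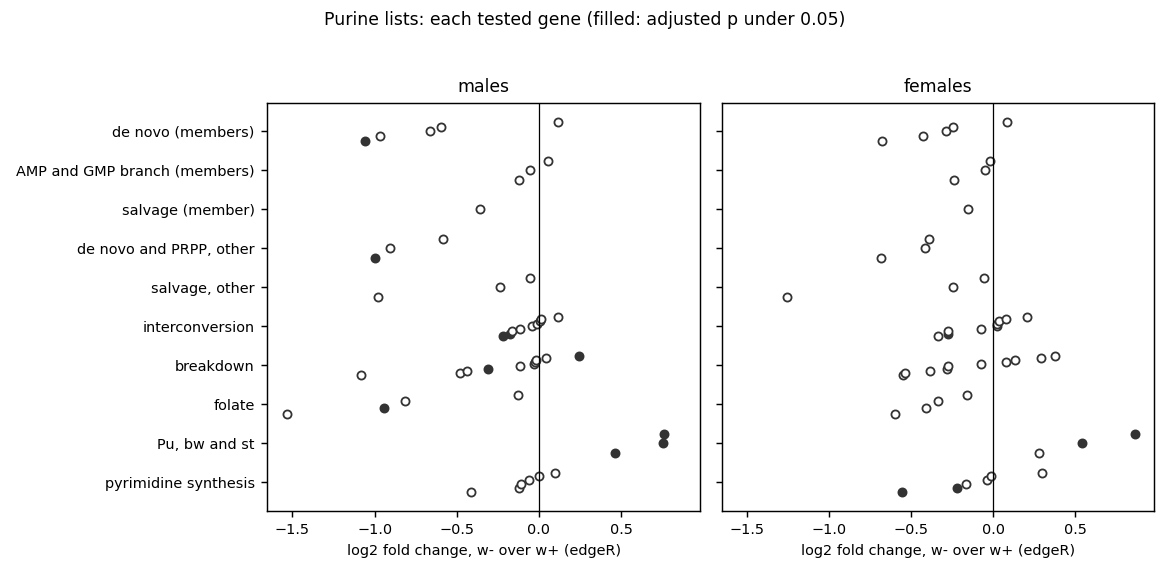
Change in w- over w+ heads (edgeR log2 fold change) of every tested gene of the purine lists and of pyrimidine synthesis, in males (left) and females (right); each circle is a gene and filled circles have an adjusted p under 0.05. De novo, PRPP and folate genes lie mostly below 0, and Pu, bw and st lie above 0 in both sexes.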

How the data were processed

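RNA from pools of 10 heads was made into mRNA libraries with the Kapa HyperPrep kit. The authors trimmed reads with Trim Galore 0.6.1, used STAR against genome r6.60 and deposited raw reverse-strand read counts per gene. The deposited tables of normalized signal for each sex hold these counts divided by 1 size factor per library; they served to check the samples and the filter and were not tested. Tests were limited to genes that reached 10 counts in 3 or more libraries, both of the series and of the comparison. In R 4.3.3, edgeR 4.0.16 (TMM, quasi-likelihood test) fitted genotype within each sex with replicate number as a block, as in the study's code; the sex comparisons had no block. Adjusted p-values are Benjamini-Hochberg over all genes tested. Alternatives were DESeq2 1.42.0, the block, other scalings and filters, all 20 libraries in 1 fit, libraries thinned to the smallest total and leaving out each replicate; leave-one-out of the Prat ratio and all alternatives for genes outside the 9 were added after seeing the data. The test was checked on simulated counts, where 200 of 200 genes changed by a log2 fold of 1 were recovered in males among 11036 genes tested, with 14 false calls. Every simulated gene was given the same relative spread, and only genes with many counts were changed. Recovery of genes that vary more between libraries, as ade3 did, was thus not checked.

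The 9 genes and the lists were chosen with earlier results of these data known. Of the 9, 5 matched the annotation by current symbol and 4 by an older symbol in RefSeq. Gene positions come from the Ensembl annotation of Release 6. The text names the 9 genes, white, every gene of the other lists past the threshold in either sex (at most 3 a direction, list and sex), and the 3 genes closest by Pearson's r to the 9's member of smallest adjusted p in each sex. Replicates of a group differed from each other by far more than sampling noise (chi-square per degree of freedom 15.0 to 357). Reads shared between the paralogs were not examined. Protein and promoter sequences were not used here.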

Additional observations from a re-analysis of the deposited data

Results flagged for a closer look

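Of 36 groups of 5 libraries examined (9 genes in 4 groups), 1 held a library set apart from the others: bur in w- males, where replicate 4 stood at 121 CPM and the other 4 between 109 and 112 CPM. A gap of this size appears by chance in about 1 in 20 groups. The same library was the highest w- male for Prat2, ade2, ade3 and AdSL and had the highest sum of fat body markers in its group; what these share was not tested.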

How the results depend on the processing

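Of 576 alternative fits of the 9 genes, 525 kept direction and side of the threshold, 19 lost a call, 14 gained one and 18 changed sign; the causes were not tested. The number of the 9 genes called in males was 1, with 3 without the block, 0 with every gene of at least 1 count, and 0 to 2 with a replicate number left out. In females it was 0, with 1 by DESeq2 and 1 with all 20 libraries in 1 fit (bur). Between sexes it was 3 in w+, with 0 by library totals alone. In w- it was 5, with 3 with all 20 libraries in 1 fit and 3 to 6 with a replicate left out. With the replicate block, ade3 and bur passed in w- as well as these 5. Over all genes, male calls were 1421 (714 to 1526 with a replicate left out), female calls 993 (82 to 1121; 1715 by DESeq2, 659 without the block, 2215 by library totals, 2068 in 1 fit), interaction calls 3 (0 to 5; 18 by DESeq2) and w+ sex calls 3150 (1800 to 3426; 6266 by library totals). The w+ count of the 9 between sexes was 2 to 4 with a replicate left out. By library totals alone 59.3% of male and 83.1% of female calls were higher in w-, against 36.5% and 51.2%.

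Signs changed by library totals alone for AdSS (0.089) and ras (0.12) in females, for the interaction of Prat (0.056) and ras (0.0090), for w+ sex differences of Prat (-0.14), Prat2 (-0.11), ade2 (-0.17), ade3 (-0.19) and AdSL (-0.17), and for w- ones of Prat (-0.081) and bur (-0.067). Leaving out a replicate gave ranges that cross 0 for the interaction of Prat (-0.11 to 0.0095) and the w+ sex differences of Prat2 (-0.033 to 0.33), ade2 (-0.16 to 0.32), ade3 (-0.12 to 0.37) and AdSL (-0.098 to 0.31). Same-numbered w+ and w- libraries did not share deviations throughout (mean r 0.29, from -0.55 to 0.81, in males; -0.13, from -0.47 to 0.20, in females; best with its own number in 2 and 0 of 5), so the numbers are not shown to pair libraries. Without the replicate block AdSS and Aprt also passed in males (-0.12 and -0.36), and with it ade3 (0.73) and bur (0.10) passed between w- sexes.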
